A study of Mus musculus with 6 samples.

Results

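The NF-kappaB transcription factors and the proteins that hold them in check were followed in flow-sorted CD4+YFP+ lymph node T cells of mice with floxed Dicer. The group was fixed by name as 10 genes: the factor genes Nfkb1, Nfkb2, Rel, Rela and Relb, the inhibitor genes Nfkbia, Nfkbib, Nfkbid and Nfkbie, and Tnfaip3. All probe sets with 1 of these names as their single gene symbol in the array's annotation were taken. They came to 17 probe sets for 9 of the 10 genes, out of 45101 probe sets and 18194 single gene symbols in all. No probe set carried Nfkb1 as its single symbol in the annotation used here, so Nfkb1 was not analysed here.

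In the KO group (Dicer lox/lox) both Dicer copies could be cut by Cre, and in the Het group (Dicer wt/lox) 1 copy could not. Both groups carried the FoxP3-GFP-hCre transgene, which drives a GFP and Cre fusion from Foxp3 control sequence, and the ROSA26R-YFP reporter, so the Het cells had also met Cre, which could cut 1 of their Dicer copies. YFP stays on after Cre has acted, so the sorted cells include any that no longer express Foxp3. The labels give 3 arrays per group, lettered A, B and C, and give no age, sex or pooling of the mice. They do not say that the arrays came from separate animals, and the p-values therefore reflect no more than the spread among these 6 samples, possibly a technical one. In sorted bulk RNA, a change in the share of a cell type and a change in RNA per cell cannot be told apart.

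Mature microRNAs are cut from their precursors by the enzyme Dicer, and they lower the stability and translation of matching messenger RNAs. NF-kappaB factors are dimers of RelA, c-Rel and RelB with the p50 and p52 products of Nfkb1 and Nfkb2. Inhibitor proteins of the IkappaB family keep most of them in the cytoplasm until a kinase complex, IKK, marks the inhibitor for destruction after a signal from the antigen receptor or a TNF receptor. Several inhibitor genes are themselves NF-kappaB targets, which makes a feedback loop. In mouse regulatory T cells c-Rel and the nuclear IkappaB protein encoded by Nfkbid are known to promote Foxp3 expression.

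MicroRNAs are known to act on this pathway, and their mature sequences are shown because Dicer makes them. MiR-146a is induced by NF-kappaB and targets Traf6 and Irak1, and the miR-125 family was reported to target TNFAIP3 in human lymphoma cells. The sequences are from RefSeq (GRCm38.p6), 5′ to 3′, with the seed, bases 2 to 8, in capitals.
mmu-miR-146a-5p: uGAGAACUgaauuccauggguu
mmu-miR-146b-5p: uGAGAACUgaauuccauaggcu
mmu-miR-125a-5p: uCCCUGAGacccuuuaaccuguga
mmu-miR-125b-5p: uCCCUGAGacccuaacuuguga
The first pair shares 1 seed and the second pair another. MicroRNA levels were not measured by these arrays, and target sites were not searched.

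The other sequences that bear on the family are its own promoters, because the inhibitor genes are classical NF-kappaB targets. The κB consensus motif, 10 bases long, was searched on both strands in the 250 bases before each RefSeq start site (GRCm38.p6), and matches at the same place on both strands were counted as 1 place. Of 13 windows for 8 member genes, 8 windows held a match, and these belonged to 6 genes (Nfkb2, Rel, Nfkbia, Nfkbid, Nfkbie and Tnfaip3). Over all promoters given 3.9% of 32817 windows and 4.45% of 26994 genes held one. The windows of Rela and Nfkbib held none, 2 of the 3 Nfkbid windows and 1 of the 2 Tnfaip3 windows held none, and no window was given for Relb. A match is a description of the letters and not evidence of binding.

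Shown are 4 windows with a match, from 3 inhibitor genes and 1 factor gene, and the Rela window without one, with matches in capitals.
Nfkbia, chr12:55492648-55492897, minus strand: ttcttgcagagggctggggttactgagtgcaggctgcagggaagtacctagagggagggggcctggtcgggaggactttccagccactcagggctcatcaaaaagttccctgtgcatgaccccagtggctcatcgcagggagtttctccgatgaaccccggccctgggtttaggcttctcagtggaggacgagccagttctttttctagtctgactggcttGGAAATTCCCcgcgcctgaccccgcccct
Tnfaip3, chr10:19015411-19015660, minus strand: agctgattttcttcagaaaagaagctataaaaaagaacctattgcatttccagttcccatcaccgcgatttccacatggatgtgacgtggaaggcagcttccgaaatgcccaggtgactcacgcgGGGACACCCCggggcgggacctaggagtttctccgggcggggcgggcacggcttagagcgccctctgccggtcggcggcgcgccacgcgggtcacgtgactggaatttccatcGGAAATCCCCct
Nfkbie, chr17:45555450-45555699, plus strand: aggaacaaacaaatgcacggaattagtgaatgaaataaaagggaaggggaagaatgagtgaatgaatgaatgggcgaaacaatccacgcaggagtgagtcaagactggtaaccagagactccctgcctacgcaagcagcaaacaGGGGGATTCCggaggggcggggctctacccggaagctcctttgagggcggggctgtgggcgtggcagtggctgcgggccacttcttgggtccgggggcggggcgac
Nfkb2, chr19:46304487-46304736, plus strand: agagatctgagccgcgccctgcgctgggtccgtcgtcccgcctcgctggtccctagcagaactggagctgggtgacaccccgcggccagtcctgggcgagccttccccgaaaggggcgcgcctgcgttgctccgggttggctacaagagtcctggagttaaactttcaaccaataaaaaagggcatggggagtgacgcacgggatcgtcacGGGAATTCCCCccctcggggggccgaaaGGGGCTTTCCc
Rela, chr19:5637291-5637540, plus strand: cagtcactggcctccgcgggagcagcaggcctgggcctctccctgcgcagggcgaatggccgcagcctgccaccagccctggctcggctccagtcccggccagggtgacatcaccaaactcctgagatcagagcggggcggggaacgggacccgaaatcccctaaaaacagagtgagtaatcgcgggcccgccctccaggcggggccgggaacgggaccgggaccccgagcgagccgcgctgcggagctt
The match nearest the start site began 29 bases before it in Nfkbia and 12 bases before it in Tnfaip3. Tnfaip3 had another match at 125 bases, and that of Nfkbie began 106 bases before the start. In Nfkb2 the matches began 39, 38 and 11 bases before the start, the first pair of them overlapping.

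The arrays were alike in brightness, with median intensities of 58.1 to 61.5, and arrays of 1 group correlated at 0.989 to 0.993 (Pearson's r of log2 values), those of different groups at 0.982 to 0.990. Of the 45101 probe sets, 29507 were bright enough to test (log2 intensity above 4 on at least 3 of the 6 arrays). Precision is limited by the 3 arrays per group. The T cell genes Cd3d, Cd3e and Cd3g and the regulatory T cell genes Foxp3, Il2ra and Ctla4 were bright on all 6 arrays. Foxp3 read 5453, 9417 and 5420 on KO A, B and C, against 9960, 8945 and 9769 on Het A, B and C. Dicer1 read 1029, 1053 and 1187 in KO, against 1203, 1077 and 1059 in Het, on 1 probe set, and 896.7, 975.9 and 709.2 against 1218, 1120 and 1345 on the other. The place of these probes in or outside the deleted stretch is unknown here, and they do not check the labels.

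The summed markers of B cells, CD8 T cells, NK cells and myeloid cells were highest on the B arrays of both groups. Their part in the results that rest on KO B was not tested. The summed intensity of 9 B cell genes was 2695, 5977 and 2436 on KO A, B and C, against 1433, 3526 and 1374 on Het A, B and C. The 2 CD8 genes summed to 670.2, 4415 and 636.3 in KO, against 908.6, 2257 and 650.7 in Het. The 10 myeloid and dendritic cell genes with a probe set summed to 1135, 4943 and 1604 in KO, against 736, 1966 and 796 in Het. The 4 NK cell genes with a probe set summed to 133, 1663 and 130.1 in KO, against 114, 608 and 126.1 in Het. Klrd1 alone made up most of each NK sum, at 91.85, 1621 and 88.98 in KO, against 69.17, 566.2 and 83.06 in Het. Ncr1, Klre1 and Klra8 read no more than 18.73 on any array. The 5 plasma cell genes summed to 14997, 20595 and 19548 in KO, against 8820, 9048 and 9091 in Het. Most of each sum was Xbp1, at 12588, 14990 and 15127 in KO, against 7859, 7251 and 7824 in Het. Of the 5 genes, Jchain, the antibody joining chain, read 388.8, 3197 and 2623 in KO, against 11.46, 163.1 and 13.59 in Het. Sdc1, the plasma cell surface marker syndecan-1, read 72.61, 72.24 and 72.38 in KO, against 75.65, 80.62 and 74.89 in Het. Of these lists, only the plasma cell list had a member past the test (1 gene, Xbp1, which activated T cells also express). Pax5 (B cells), Tnfrsf17 (plasma cells), Itgam and Cd14 (myeloid cells) and Ncr1 and Klra8 (NK cells) stayed under the filter, at no more than 15.2. The myeloid gene Itgax was not tested either, but read 51.95 on KO B, against 8.161 and 8.107 on KO A and C. Other markers of these lists were bright on KO B, among them Cd22 (2980), H2-Ab1 (2255), Klrd1 (1621) and Lyz2 (1408). Cd22 was also bright on KO A and C, at 1063 and 1312. Further tested markers did not stand out on KO B. On KO A, B and C, Csf1r read 156.1, 174.4 and 168, Flt3 112.6, 130.8 and 130.4, and Zbtb46 172.4, 167 and 167.9. Klre1 read 16.71, 17.17 and 16.91 there, and Fcer2a read 89.94 on KO B, against 293.3 on Het B. The ratio of the 3′ to the 5′ beta-actin control probe sets, a sign of RNA quality, was 2.15 on KO B and 1.41 to 1.93 on the other 5 arrays.

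In KO cells the inhibitor genes Nfkbia, Nfkbib and Nfkbie read above all Het arrays, on 4 of 5 tested probe sets (Nfkbia) or all (Nfkbib, Nfkbie). So did the alternative-pathway genes Relb and Nfkb2 and the brake gene Tnfaip3, on all (Relb) or 1 of 2 (Nfkb2, Tnfaip3). The Rela arrays of both groups covered the same range, and the groups also overlapped on the only tested probe sets of Rel and of the inhibitor gene Nfkbid. None of these differences passed the test across all probe sets: 0 of the 16 tested member probe sets had an adjusted p under 0.05 by limma, where 1.78% of all 29507 did (1.11% higher and 0.668% lower). The unadjusted p was under 0.05 for 10 of the 16, all higher in KO and 0 lower, against 9.24% higher and 9.85% lower over all probe sets tested. On the same 10 probe sets every KO array lay above every Het array, which held for 11.3% of all probe sets. On the other 6 the groups overlapped, and no member probe set had KO below Het, as 14.9% of all probe sets did. All 16 differences were positive, against 42.8% of all probe sets, although the Rela difference was near 0 and turned negative in several alternative fits. The median log2 difference was 0.53 over the 16 probe sets and -0.03 over all tested. The members were chosen with earlier results of these data known, so these shares are descriptions only.

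**Figure D1:**
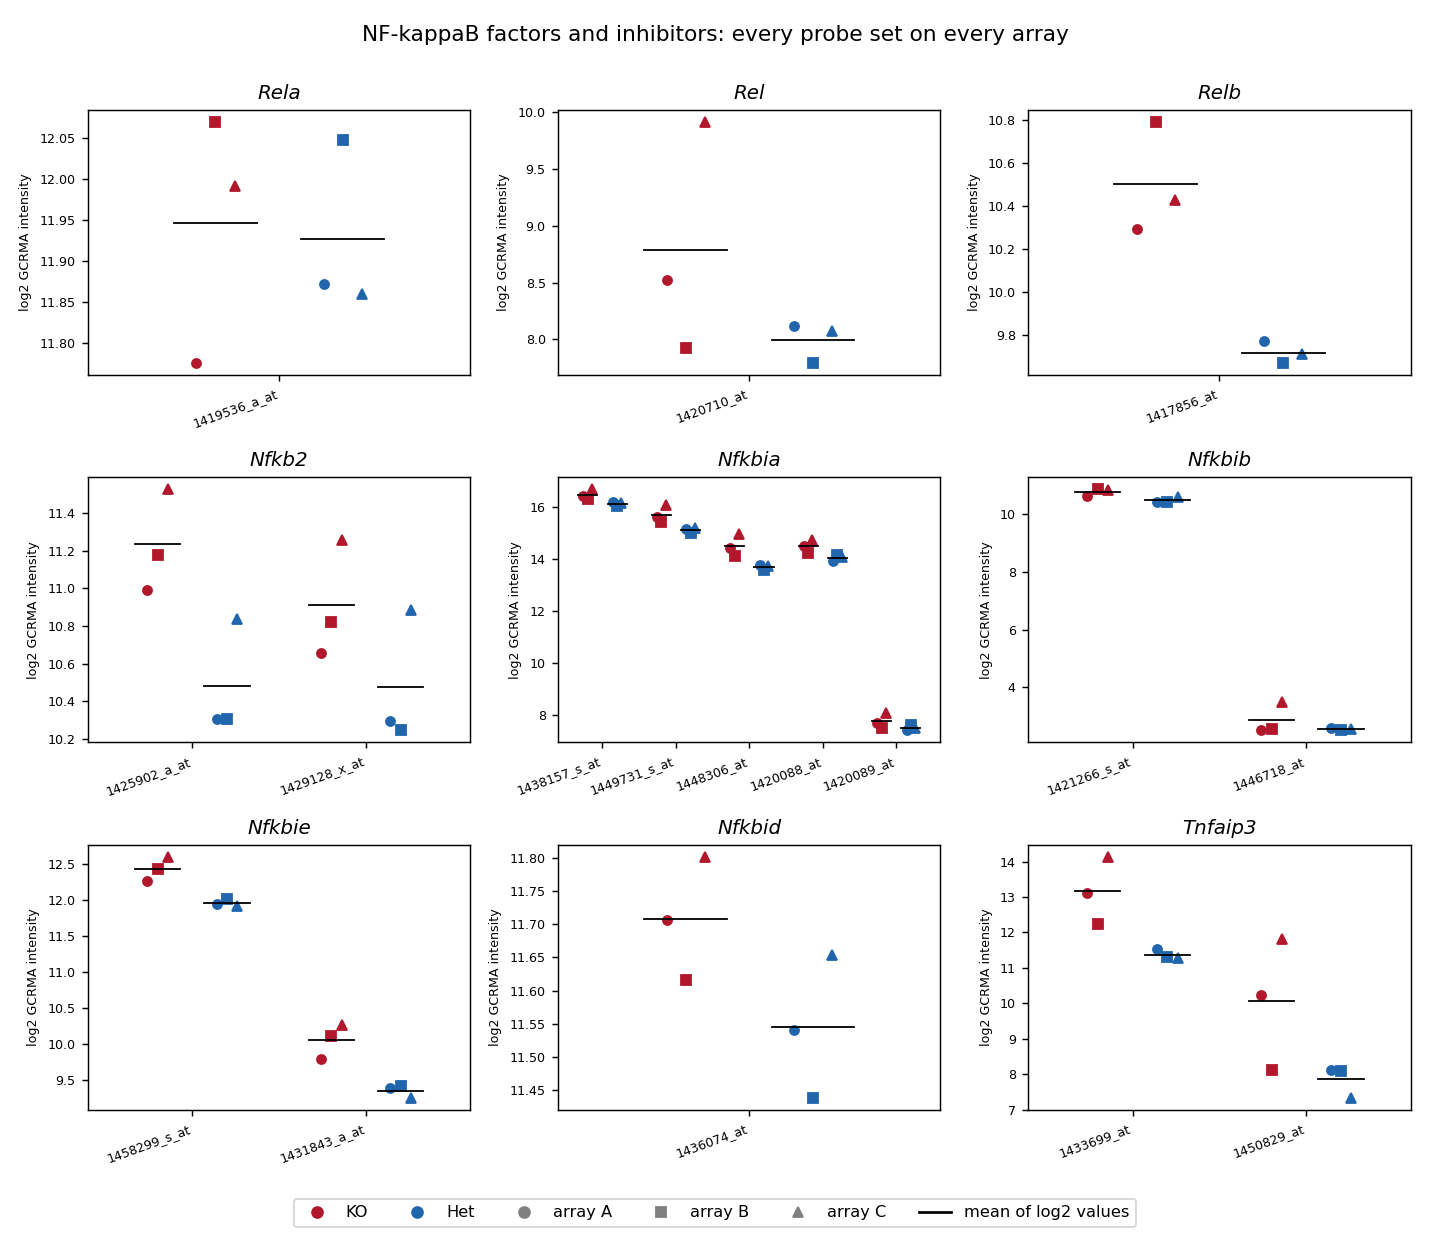
Each panel plots the log2 GCRMA intensity (y axis) of each probe set (x axis) of 1 gene on the 3 KO arrays (red) and the 3 Het arrays (blue), with a bar at the mean of the log2 values. The panels have different y ranges. The Relb, Nfkbie and brighter Tnfaip3 probe sets show all KO points above all Het points, and the Rela points of both groups overlap.

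Among the factors, Relb, which pairs with p52 in the alternative pathway, had the smallest p of the family. It read 1256, 1773 and 1376 on KO A, B and C, against 874.8, 816.1 and 839.7 on Het A, B and C. All KO arrays were above all Het arrays, and the Het arrays lay close together. The log2 difference was 0.78 ± 0.14 (SE; limma, adjusted p = 0.0626), which is 1.72-fold with a 95% interval of 1.35 to 2.20. Over 14 alternative fits its adjusted p ran from 0.0454 to 0.172, and it passed in 1 of them, with array weights. Relb was highest on KO B, the array with the highest markers of B cells and myeloid cells, which are known to express Relb. On Het B, the Het array with the highest of these markers, Relb was the lowest of all 6 arrays, at 816.1. The part of such cells in the difference was not tested. Without both B arrays the difference was 0.62 (adjusted p = 0.155).

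Nfkb2, whose product p100 is both the precursor of p52 and an inhibitor of RelB, was measured by a pair of probe sets. On 1425902_a_at it read 2038, 2318 and 2949 in KO, against 1264, 1266 and 1829 in Het, and the lowest KO array lay above Het C. The log2 difference was 0.75 ± 0.21 (SE; limma, adjusted p = 0.140). On 1429128_x_at, a design type that can also bind related transcripts, it read 1613, 1807 and 2442 in KO, against 1255, 1215 and 1891 in Het, so that Het C lay above KO A and KO B. The log2 difference there was 0.43 ± 0.24 (adjusted p = 0.395), and it was 0.26 without KO C. In each group array C was the highest for Nfkb2.

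Rel, the gene of c-Rel, stood apart on a single array. It read 366.8, 242.3 and 966.5 on KO A, B and C, against 277.4, 222 and 268.6 on Het A, B and C. KO C was far above all others, while KO B lay within the Het range. The log2 difference of 0.79 ± 0.51 (SE; limma, adjusted p = 0.467) was 0.23 without KO C and 1.22 without KO B.

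Rela, the gene of the most widely used factor, read 3508, 4300 and 4073 in KO, against 3748, 4235 and 3718 in Het, with both groups over the same range. Its log2 difference was 0.019 ± 0.11 (SE; limma, adjusted p = 0.942), and the 95% interval of -0.26 to 0.29 contained 0. The bounds correspond to 0.837-fold and 1.23-fold.

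Among the inhibitors, Nfkbia, the gene of IkappaB alpha and a classical NF-kappaB target, had 5 probe sets, all with a positive difference, from log2 0.25 to 0.79. On 1448306_at it read 21791, 17681 and 31866 in KO, against 13844, 12349 and 13759 in Het. KO C was highest and KO B lowest among KO arrays, and all were above Het. The log2 difference there was 0.79 ± 0.22 (SE; limma, adjusted p = 0.143). On the probe set of highest mean, 1438157_s_at, it read 88957, 81464 and 105764 in KO, against 74416, 67131 and 72398 in Het, a log2 difference of 0.36 ± 0.12 (adjusted p = 0.192). The dimmest, 1420089_at, read 205.5, 182.5 and 266.7 in KO, against 170.2, 196.1 and 178.3 in Het, and was the 1 of the 5 on which the groups overlapped. The remaining probe sets, 1449731_s_at and 1420088_at, gave log2 0.58 (adjusted p = 0.176) and 0.44 (adjusted p = 0.205).

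Nfkbie, the gene of IkappaB epsilon, was the inhibitor with the smallest p. On 1431843_a_at it read 885.2, 1109 and 1225 in KO, against 668.9, 681.2 and 611.3 in Het. On 1458299_s_at it read 4906, 5522 and 6231 in KO, against 3933, 4153 and 3865 in Het. On both probe sets all KO arrays lay above all Het arrays, with KO C highest and KO A lowest among KO. The log2 differences were 0.70 ± 0.14 (SE; limma, adjusted p = 0.0737) and 0.47 ± 0.11 (adjusted p = 0.0992). Over the 14 alternative fits the first ran from 0.60 to 0.84.

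Nfkbib, the gene of IkappaB beta, read 1595, 1864 and 1829 in KO, against 1385, 1360 and 1530 in Het, on 1421266_s_at. The groups did not overlap, but the difference was small, at log2 0.31 ± 0.10 (SE; limma, adjusted p = 0.186). Its other probe set, 1446718_at, was under the filter on all 6 arrays and was not tested. It read 5.80, 5.85 and 11.2 in KO, against 5.98, 5.72 and 5.88 in Het.

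Nfkbid, the gene of the nuclear inhibitor IkappaBNS, read 3340, 3140 and 3570 in KO, against 2979, 2776 and 3223 in Het. KO B lay below Het C, so the groups overlapped, and the log2 difference was 0.16 ± 0.10 (SE; limma, adjusted p = 0.424) with a 95% interval of -0.07 to 0.40. It was the smallest difference of the inhibitor genes on their probe sets of highest mean.

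Tnfaip3, the gene of A20, a ubiquitin-editing enzyme that ends NF-kappaB signals, had the largest difference of the family, on both of its probe sets, and a wide spread among KO arrays. On 1433699_at it read 8914, 4830 and 18086 on KO A, B and C, against 2966, 2548 and 2485 on Het A, B and C. All KO arrays lay above all Het arrays, and the highest KO array was 3.74 times the lowest, against 1.19 times in Het. The log2 difference was 1.79 ± 0.47 (SE; limma, adjusted p = 0.126), which is 3.46-fold with a 95% interval of 1.54 to 7.77. On the dimmer 1450829_at it read 1217, 276.9 and 3613 in KO, against 280.1, 272.9 and 161.7 in Het. There KO B lay inside the Het range, and the log2 difference was 2.21 ± 0.93 (adjusted p = 0.279), 1.33 without KO C and 3.18 without KO B.

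**Figure D2:**
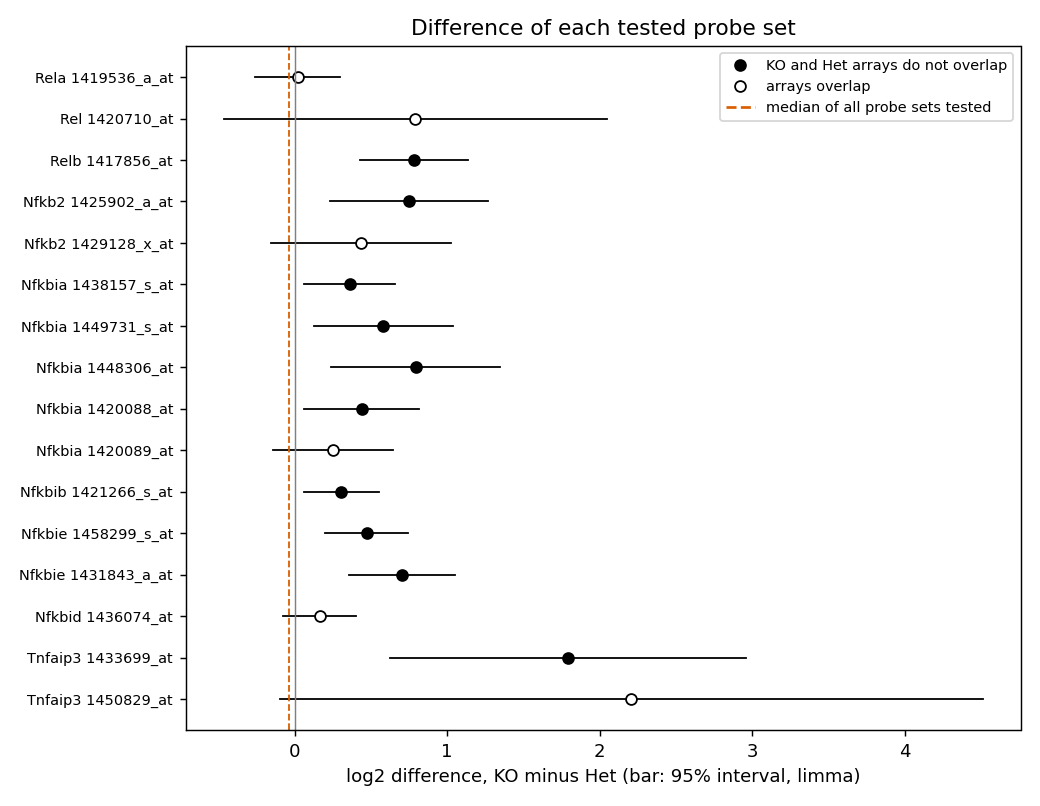
Points show the log2 difference, KO minus Het (x axis), of each of the 16 tested probe sets (y axis), with 95% intervals from limma. Points are filled where the KO and Het arrays did not overlap, and the dashed line is the median of all probe sets tested, -0.03. The unadjusted intervals of the 10 filled points lie above 0, and those of the 6 open points include 0.

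The KO arrays did not order the genes alike. By the probe set of highest mean per gene, KO C was the highest KO array for 6 of 9 genes (Nfkb2, Rel, Nfkbia, Nfkbid, Nfkbie and Tnfaip3). KO B was the highest for Rela, Relb and Nfkbib and the lowest for 4 genes (Rel, Nfkbia, Nfkbid and Tnfaip3). The share of all genes with such orders is not given here, so these counts are descriptions only. Set against the Het mean, Tnfaip3 stood at log2 1.75, 0.86 and 2.77 on KO A, B and C, while Relb stood at 0.57, 1.07 and 0.71. Rel stood at 1.92 on KO C and -0.07 on KO B. Tnfaip3 was 1.90 higher (log2) on KO C than on KO B, and on these probe sets no member besides Rel and Tnfaip3 differed by more than 0.38 between this pair of arrays. The dimmer probe sets of Nfkbia and Nfkb2 differed by more, with 31866 on KO C and 17681 on KO B for Nfkbia on 1448306_at. Some genes outside the family, picked after their values were seen, also had KO C highest and KO B lowest among KO arrays. On KO A, B and C, Junb read 5602, 2489 and 15896, Gadd45b 3528, 1256 and 8851, and Nr4a1 4782, 3218 and 10082. Ccl5 and Ier3 were instead highest on KO B. The cause of this spread was not tested. Without both B arrays the Tnfaip3 difference on 1433699_at was 2.23 (limma, adjusted p = 0.164), and that of Nfkbia on 1448306_at was 0.93.

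**Figure D3:**
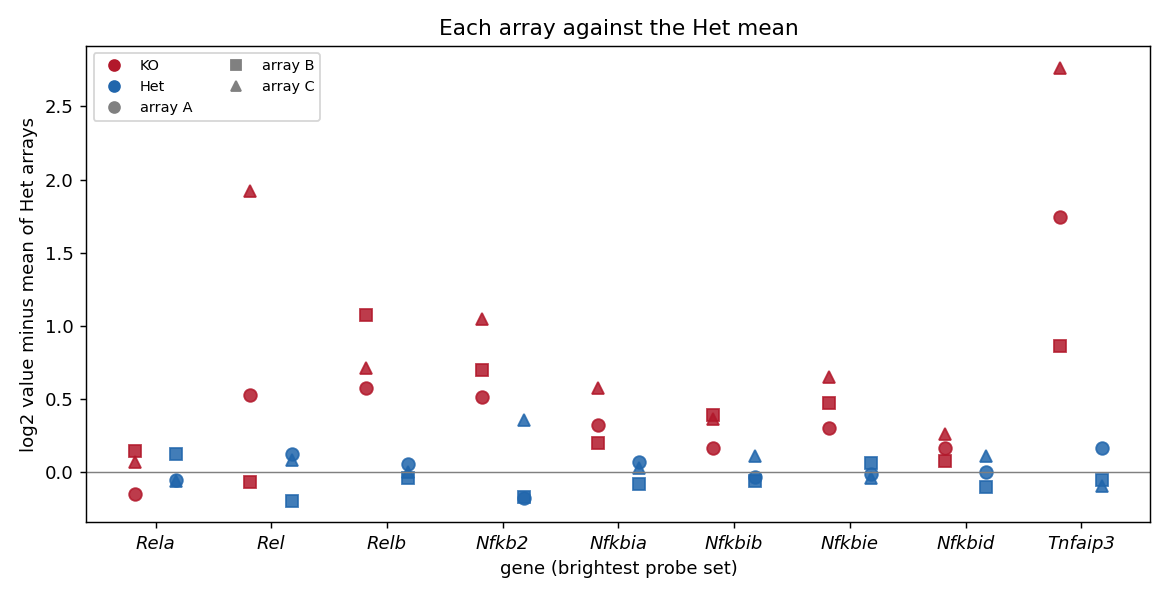
For each gene (x axis, probe set of highest mean) the log2 value of each array is plotted as its distance from the mean of the 3 Het arrays (y axis), KO in red and Het in blue, with 1 symbol per array letter. KO C (red triangles) stands highest for Tnfaip3, at 2.77, and for Rel, at 1.92, while KO B (red squares) stands highest for Relb, at 1.07.

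By 1 probe set per gene, 6 of the 9 genes had an unadjusted p under 0.05 with KO above Het (Relb, Nfkb2, Nfkbia, Nfkbib, Nfkbie and Tnfaip3), and 0 passed after adjustment. Over all 13280 genes 10.7% were higher at that level and 2.33% passed in either direction. All 9 differences were positive, with that of Rela near 0 and turning in some alternative fits, as were 43.4% of all genes. The 4 genes with more than 1 tested probe set each had the same sign on all of them.

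The rest of the pathway was read from 7 lists of 127 genes, of which 111 were measured. The lists were chosen with earlier results of these data known, so their shares are descriptions only. They held 4 genes past the test and higher in KO and 2 lower, or 3.6% higher against 1.37% of all genes, where 0.956% were lower. The unadjusted p (limma) was under 0.05 for 32 higher and 8 lower of the 111 genes, where 10.7% and 11.6% of all genes were. These shares of all genes are also the background for the counts of each list below. The median log2 difference was 0.13 against -0.03. Those 6 calls became 3 without KO A, and 0 without any 1 of the other 5 arrays or with the array letter as a replicate block.

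Of the kinases that switch the pathway on, 0 of 8 measured genes passed (limma; unadjusted p under 0.05 in 2 higher and 1 lower). Map3k14, the kinase that starts the alternative pathway, read 690.7, 903.7 and 777.8 in KO, against 566.1, 390.4 and 539.9 in Het (log2 0.67, adjusted p = 0.132). All its KO arrays lay above Het. Map3k8, which binds p105, gave log2 0.67 (adjusted p = 0.216). Of the antigen receptor branch 0 of 8 passed (unadjusted p under 0.05 in 1 higher and 0 lower), and the differences ran from -0.01 to 0.21, with Casp8 at 0.21 and Pdpk1 at 0.19.

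Of the adaptors and ubiquitin ligases 0 of 19 passed (limma; unadjusted p under 0.05 in 6 higher and 1 lower). Birc2, a ubiquitin ligase that restrains the alternative pathway, read 5235, 4618 and 5870 in KO, against 3509, 3642 and 3772 in Het (log2 0.52 ± 0.11, SE, adjusted p = 0.0825). Traf6, an adaptor ligase and a known miR-146a target, read 810.3, 1067 and 952.4 in KO, against 670.3, 498.6 and 585 in Het (log2 0.69 ± 0.16, adjusted p = 0.0942). Both had all KO arrays above all Het arrays. Its other tested probe sets gave log2 0.39 and 0.12. Irak1, the other known miR-146a target, differed the other way, at log2 -0.26 (adjusted p = 0.424), and its 4 probe sets were all lower, from -0.33 to -0.15.

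Of the deubiquitinases and other brakes 0 of 13 passed (limma; unadjusted p under 0.05 in 2 higher and 0 lower). N4bp1, an inhibitor of NF-kappaB signalling, read 5376, 3391 and 3853 in KO, against 2123, 2285 and 2160 in Het (log2 0.91, adjusted p = 0.0731). A dimmer N4bp1 probe set passed, at log2 1.16 (adjusted p = 0.0297). Zc3h12a, the ribonuclease Regnase-1, gave log2 0.68 (adjusted p = 0.165), while Cyld (0.16) and Tnip1 (-0.09), which act beside A20, were near 0.

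Of the other IkappaB-like and Rel-binding genes 0 of 7 passed (limma; unadjusted p under 0.05 in 3 higher and 1 lower), and the median of this list was negative, at -0.16. Bcl3, a nuclear IkappaB protein that works with p50 and p52, read 3526, 5044 and 6206 in KO, against 1763, 1917 and 2193 in Het (log2 1.30 ± 0.22, SE, adjusted p = 0.0571). Nfkbiz, another nuclear IkappaB protein, read 22380, 20189 and 26364 in KO, against 16440, 12371 and 12417 in Het (log2 0.75, adjusted p = 0.0869). All KO arrays lay above all Het arrays for both. The other Nfkbiz probe sets gave 1.15 and 0.17.

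Of the receptors that feed the pathway 1 of 17 passed, and it fell: Tlr7, a sensor of single-stranded RNA, read 90.33, 101.4 and 110.2 in KO, against 353.1, 244.5 and 272 in Het (log2 -1.51 ± 0.16, SE; limma, adjusted p = 0.0253). Its dimmer probe sets gave -0.76 and -0.71 and did not pass. The other 16 did not pass, and of all 17 receptors 8 had a positive difference (43.4% of all genes did), up to 0.94.

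Of the reported NF-kappaB targets outside the family 4 of 39 rose, 1 fell and 34 did not pass, with a median of 0.30. Over all genes 1.37% passed and were higher, and 0.956% passed and were lower. The unadjusted p (limma) was under 0.05 in 15 higher and 3 lower, against 10.7% and 11.6% of all genes. Icam1, an adhesion molecule, read 4127, 4123 and 3894 in KO, against 2433, 2369 and 2314 in Het (log2 0.77 ± 0.07, SE, adjusted p = 0.0222). Its groups lay far apart relative to their spread. Irf1, Psmb9 and Tap1, which are also induced by interferon, rose by 1.21, 0.86 and 1.35 on the log2 scale, and a dim Tap1 probe set gave -0.05. Cd83, an activation marker, was the 1 that fell, with log2 -1.75 (adjusted p = 0.0191). Of the 34 that did not pass, Ier3 (3.37), Ccl5 (2.51) and Cxcl10 (1.72) had the largest log2 differences (limma, adjusted p = 0.104, 0.244 and 0.0651). Tnf (-0.11), Ltb (-0.16) and Sod2 (-0.06), also targets, were near 0. Of all 39 differences 26 were positive, against 43.4% of all genes.

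**Figure D4:**
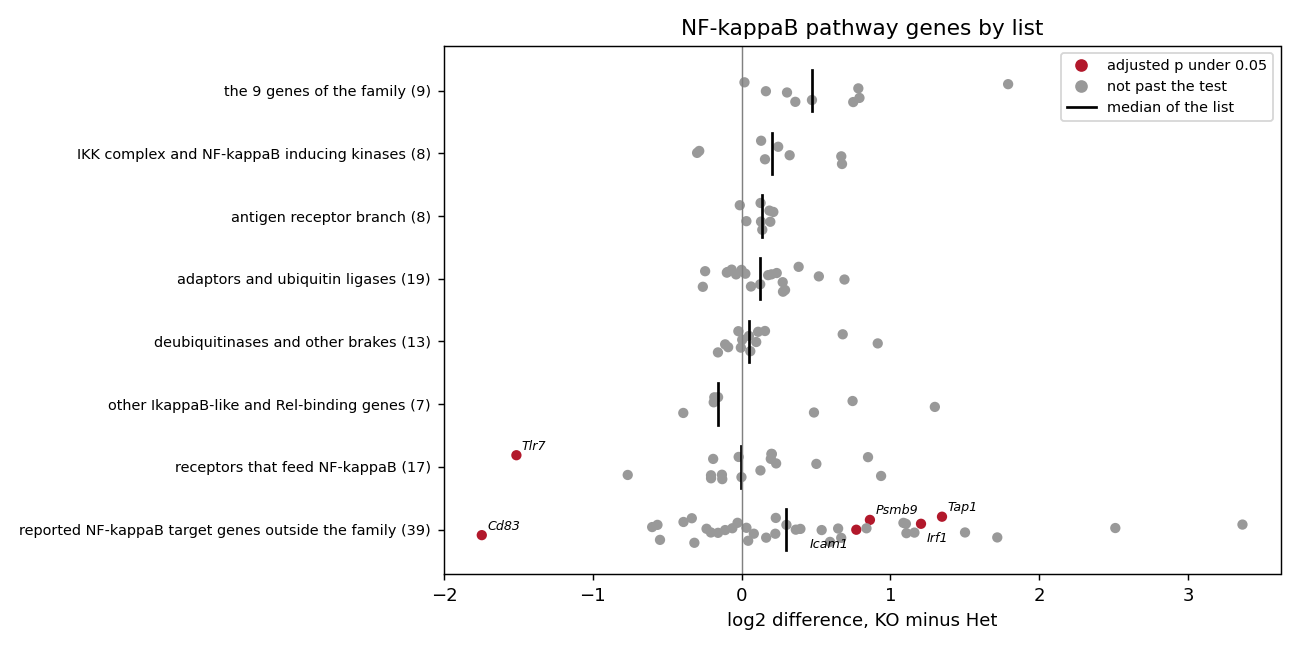
Each point is the log2 difference, KO minus Het (x axis), of 1 gene by its probe set of highest mean, in the 9 genes of the family and the 7 pathway lists (y axis, number of measured genes in brackets), with the median of each as a bar. Red points passed the test: Icam1, Irf1, Psmb9 and Tap1 were higher in KO, and Tlr7 and Cd83 lower. The family's median, 0.47, lies to the right of the 7 list medians, which run from -0.16 to 0.30.

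Outside the family, 5 named genes had the profile over the 6 arrays most like that of Relb. They were Pnpla2, a triglyceride lipase, Rad51c, a DNA repair factor, Hif1an, an oxygen-sensing hydroxylase, Kifc5b, a kinesin, and Ccnyl1, a cyclin-like gene. Other family members, predicted genes and clone names were passed over, so they could not appear here. Likeness was the root mean square distance between log2 profiles, each centred on its own mean, over the 6 arrays, and it ran from 0.07 for Pnpla2 to 0.09 for Ccnyl1. Pnpla2 read 1769, 2203 and 1891 on KO A, B and C, against 1084, 1074 and 1104 on Het A, B and C, with KO B highest as for Relb. No gene of the pathway or marker lists above was among the 5.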

How the data were processed

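RNA of sorted CD4+YFP+ T cells was labelled with biotin after MessageAmp II amplification and hybridised to 6 arrays, per the labels. The deposited values are probe set intensities that the authors normalized with GCRMA, per the labels. This method models background from probe sequence, so dim probe sets sit near a floor and their folds are less certain. The software release was not stated in the labels. The intensity scale was judged linear from the range of 1.23 to 170023, and log2 was taken.

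Left out were 64 control probe sets and 1 with missing values. The test of KO against Het was limma 3.58.1 (R 4.3.3), two-sided, with lmFit and eBayes and no covariates. Adjusted p-values are Benjamini-Hochberg over the 29507 probe sets with log2 above 4 on at least 3 arrays, with a threshold of 0.05. Intervals are 95% and unadjusted. Gene symbols came from the platform annotation, and a gene outside the family is given by its tested probe set of highest mean. The steps were tested on simulated data. Members, lists and the B-array alternative were chosen with earlier results of these data known. Named genes were all member probe sets, list genes past the test (up to 6 a list, or the 2 of smallest p), and the 5 profiles outside the family most like the member of smallest p. Values of other genes were added after they were seen. Alternatives were a replicate block, other filters, quantile normalization, median centring, trended and robust estimation, weights per array, averaging over the probe sets of a gene, and leaving out each array or both B arrays. Plots were drawn with matplotlib 3.10.9.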

Additional observations from a re-analysis of the deposited data

How the results depend on the processing

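No member probe set passed by limma under 13 of the 14 alternative fits, and 1 (Relb) did with array weights, which called 957 probe sets in all against 525. Of 224 differences refitted under these alternatives 219 kept their direction. The 5 that turned were all of Rela, at -0.015 with quantile normalization and negative without KO B, KO C, Het A or Het C. Over all 6 single-array omissions Rela ran from -0.043 to 0.10. Leaving out 1 array gave 0 to 176 calls over all probe sets, 0 to 3 over the pathway lists and 0 to 0 over the members. Deviations from the group means correlated at 0.28 for the A arrays, -0.17 for B and 0.01 for C, so not every same-letter pair was over 0.1 and the letters were not taken as pairs. With the replicate block there were 0 calls in all and 0 in the pathway lists. An unadjusted p under 0.05 (limma) was then held by 5365 probe sets, 10 of them of members. The smallest member p with the block was that of Nfkb2 1425902_a_at (limma, unadjusted p = 0.00185, adjusted p = 0.105). Its SE was 0.096 with the block, against 0.21 in the main fit. Nfkb2 1429128_x_at then had an unadjusted p of 0.0134 (limma, adjusted p = 0.173). Without both B arrays there were likewise 0 calls in all and 0 in the pathway lists, with 5274 probe sets at an unadjusted p under 0.05. Averaging over the probe sets of a gene, not among the 14 fits and not reported here for the family, gave 12 pathway calls against 6. The cause of these changes was not tested. Precision is limited by 3 arrays per group, and the dim Nfkbib probe set has no usable level.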
